A study of Mus musculus with 18 samples.

Results

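Ccl3, Ccl4, Ccl5, Ccl17, Ccl22, Cxcl9, Cxcl10 and Cxcl16 are 8 chemokine genes that B cells can switch on after antigen receptor or Toll-like receptor stimulation. They were found by their Entrez gene numbers, from a list drawn up with earlier results of these data known, and make up 8 of the 28096 genes counted in each library. RNA was read in 18 libraries of splenic B cells of C57BL/6 N mice at least 8 weeks old, 3 libraries in each of 6 groups. WT cells and Ubqln1-/- cells were each cultured for 4 hr with no stimulus, with an anti-IgM F(ab)2 antibody that cross-links the antigen receptor (10 μg/mL) or with LPS of K12 E. coli, a Toll-like receptor ligand (20 μg/mL). The Ubqln1-/- mice lack exon 2 of Ubqln1 in every cell, because the exon was deleted by Cre in the ES cells from which the line was made. Ubqln1 encodes Ubiquilin1, a chaperone that binds membrane proteins in the cytosol. Each library came from pooled wells of isolated cells, and the study describes 3 independent experiments without saying which library belongs to which.

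Chemokines are small secreted proteins that guide leukocytes by binding G protein-coupled receptors. Ccl3 and Ccl4 (MIP-1α and MIP-1β) attract T cells and monocytes, and Ccl3 and Ccl5 (RANTES) share the receptor Ccr1. Ccl17 and Ccl22 are the ligands of Ccr4, found on helper and regulatory T cells, and Cxcl9 and Cxcl10 are the interferon-inducible ligands of Cxcr3. Cxcl16, the ligand of Cxcr6, is made as a transmembrane protein that Adam10 can shed. In B cells these genes are known as early outputs of the antigen receptor and of Toll-like receptors, by which an activated B cell recruits T cell help.

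Depth ranged from 15368941 to 41072854 gene counts per library, with a median of 23257531, and every WT LPS library was larger than every Ubqln1-/- LPS library. Counts were scaled to a common library size as CPM, with TMM-adjusted totals, and RPKM, which also divides by the exonic length in the files, was used where levels of different genes were compared. Ubqln1 itself lay between 229.5 and 339 CPM in the 9 WT libraries and between 91.4 and 128 CPM in the 9 Ubqln1-/- libraries, so each library matched its label. The counts are per gene, so how the remaining ones fall over its exons was not examined. The B cell gene Cd79a, a signalling chain of the antigen receptor, was high in all 18 libraries (335 to 1440 CPM). Among defining markers of other cells, Cd3e (T cells), Ncr1 (NK cells) and S100a8 (neutrophils) had 0 to 3, 0 to 4 and 0 to 7 counts. Markers of macrophages and dendritic cells were higher, with 4.66 to 39.5 CPM of Adgre1, 0.305 to 3.39 CPM of Csf1r, 4.09 to 42.0 CPM of Zbtb46 and 6.09 to 24.7 CPM of Flt3. In CPM, which does not divide by gene length, these values are in the range of several of the chemokines. Of the 8 chemokine genes, 7 passed the expression filter together with 14161 genes in all, and Ccl17, with 0 to 13 counts per library, did not.

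The members lie on 3 chromosomes (GRCm38, GENCODE coordinates), all as protein-coding genes. Chromosome 11 holds Ccl3 (chr11:83647844-83649355, minus strand), Ccl4 (chr11:83662584-83664683, plus strand) 13228 bases from it, Ccl5 (chr11:83525778-83530518, minus strand) and Cxcl16 (chr11:70453983-70459984, minus strand). Chromosome 8 holds Ccl22 (chr8:94745590-94751699, plus strand) and Ccl17 (chr8:94810453-94812036, plus strand), 58753 bases apart. Chromosome 5 holds Cxcl9 (chr5:92321347-92328079, minus strand) and Cxcl10 (chr5:92346638-92348889, minus strand), 18558 bases apart. Promoters, taken as 250 bases before to 50 bases after the gene start, were at hand for 5 of the 8 genes (RefSeq, GRCm38.p6), namely Ccl3, Ccl17, Ccl22, Cxcl9 and Cxcl10. They are printed for Cxcl10 (chr5:92348840-92349139, minus strand) and Ccl22 (chr8:94745434-94745733, plus strand), which gave the largest changes with LPS, and for Ccl3 (chr11:83649329-83649628, minus strand), which rose with both stimuli. Each is written 5′ to 3′ along its gene, with capitals for every match on either strand to an NF-kB motif (GGGANNNNCC), an interferon-stimulated response element (GAAANNGAAA), an AP-1 motif (TGANTCA) or a GAS element (TTCNNNGAA).
Cxcl10: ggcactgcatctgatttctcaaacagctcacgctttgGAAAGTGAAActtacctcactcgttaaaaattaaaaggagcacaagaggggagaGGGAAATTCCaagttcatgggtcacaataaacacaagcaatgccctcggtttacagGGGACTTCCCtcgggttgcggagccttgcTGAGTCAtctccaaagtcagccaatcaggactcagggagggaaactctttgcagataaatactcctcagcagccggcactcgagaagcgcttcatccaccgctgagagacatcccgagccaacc
Ccl22: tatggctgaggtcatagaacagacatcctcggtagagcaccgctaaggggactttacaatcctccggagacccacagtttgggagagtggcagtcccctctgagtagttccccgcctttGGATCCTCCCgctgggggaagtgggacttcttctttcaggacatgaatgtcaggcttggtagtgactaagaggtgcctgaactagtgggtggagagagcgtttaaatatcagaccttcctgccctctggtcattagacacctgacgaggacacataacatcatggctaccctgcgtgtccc
Ccl3: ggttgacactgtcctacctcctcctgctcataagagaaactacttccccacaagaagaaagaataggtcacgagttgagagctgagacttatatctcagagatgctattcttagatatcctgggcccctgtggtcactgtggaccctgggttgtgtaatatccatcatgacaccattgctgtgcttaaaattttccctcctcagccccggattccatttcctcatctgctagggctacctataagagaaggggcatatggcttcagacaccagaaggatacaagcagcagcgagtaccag
Cxcl10 held 2 NF-kB matches, GGGAAATTCC and GGGACTTCCC, 1 interferon element, GAAAGTGAAA, and 1 AP-1 match. Ccl22 held 1 NF-kB match, which reads on the minus strand as printed, and Ccl3 held no match to any of the 4 motifs in this window. Of the other members, Cxcl9 had 1 NF-kB and 1 AP-1 match and Ccl17 had 1 GAS match. Among 32851 promoters of the same length, 20.7% held the NF-kB motif, 3.44% the interferon element, 7.81% the AP-1 motif and 8.30% the GAS element. The matches do not overlap each other.

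**Figure D1:**
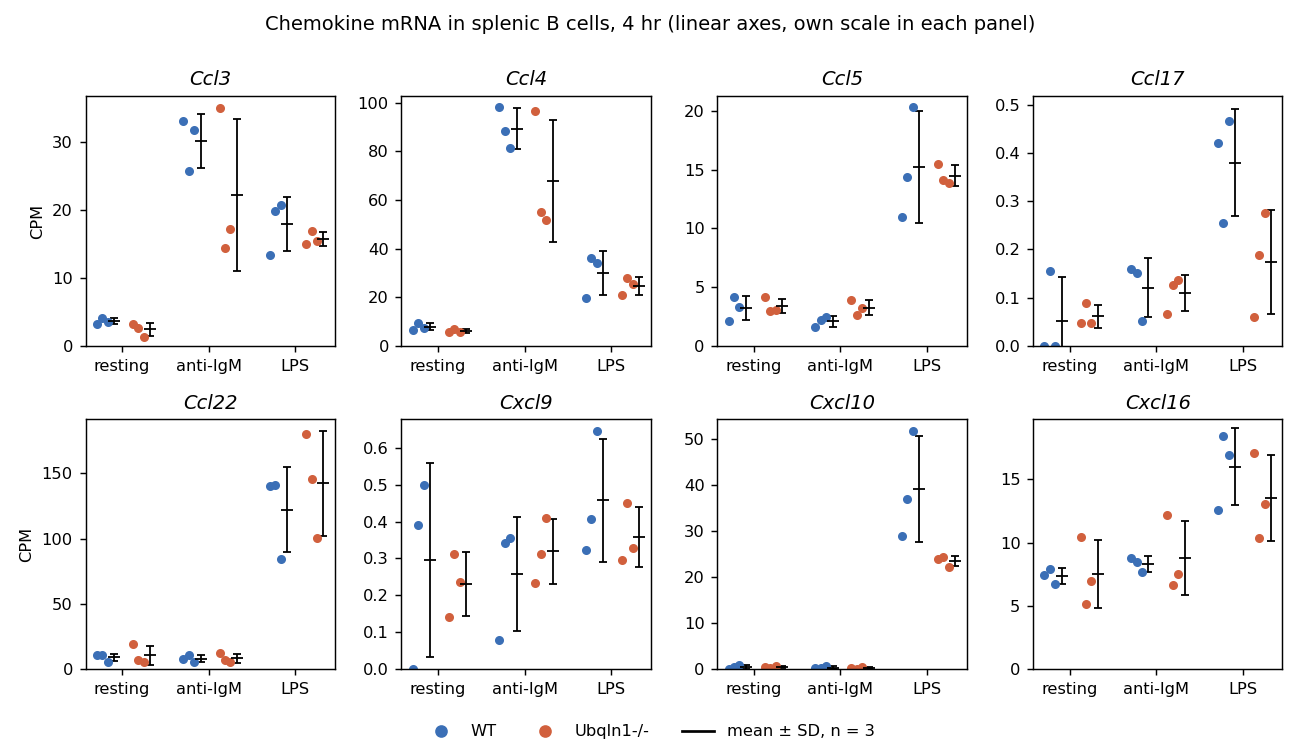
CPM (vertical axis, linear from 0, a separate scale in each panel) of the 8 chemokine genes in resting, anti-IgM and LPS cells. Points are single libraries (blue WT, orange-red Ubqln1-/-) and black bars are mean ± SD of 3 libraries. Ccl3 and Ccl4 were highest with anti-IgM, whereas Ccl22 and Cxcl10 were high with LPS alone.

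Stimulation raised the summed chemokine mRNA of the 8 genes, and each stimulus gave its own mixture. The summed RPKM was 31.1 ± 5.34 (SD, n = 3) in resting WT cells, 185.8 ± 14.1 with anti-IgM and 208 ± 26.7 with LPS. In Ubqln1-/- cells it was 28.3 ± 6.87, 145.8 ± 55.8 and 191 ± 22.0 in the same order. Every stimulated library lay above every resting library, and the ranges of WT and Ubqln1-/- libraries overlapped in each condition. In bulk RNA, a change in the share of cells that express a gene cannot be told apart from a change in RNA per cell.

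Within that sum, Ccl4 was the leading gene in resting and anti-IgM cells and Ccl22 in LPS cells. Ccl4 made up 38.2% of the summed RPKM in resting WT cells, followed by Ccl5 (19.4%), Ccl22 (15.9%) and Ccl3 (14.8%), the last 3 overlapping in their ranges. With anti-IgM, Ccl4 (72.8%) and Ccl3 (20.5%) filled nearly the whole sum in WT cells, and neither overlapped its neighbour in the order. With LPS, the WT sum was spread over Ccl22 (32.3%), Ccl4 (21.8%), Cxcl10 (17.7%), Ccl5 (13.7%) and Ccl3 (10.9%), and each of the first 4 overlapped the next in its range. The Ubqln1-/- order was the same with LPS except that Ccl5 (14.3%) stood above Cxcl10 (11.6%). Cxcl9 and Ccl17 were the lowest genes in each of the 6 groups.

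**Figure D2:**
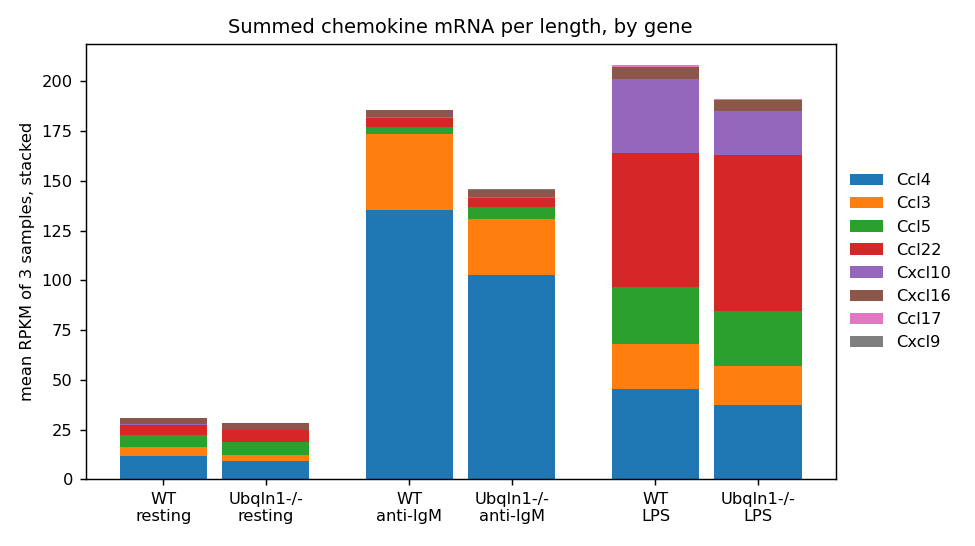
Mean RPKM of 3 libraries (vertical axis, linear), stacked by chemokine gene for each of the 6 groups on the horizontal axis. Bars for anti-IgM consist mostly of Ccl4 and Ccl3, and bars for LPS of Ccl22, Ccl4, Ccl5, Ccl3 and Cxcl10; summed heights were 31.1 and 28.3 RPKM at rest against 145.8 to 208 RPKM after stimulation.

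The first question was which members each stimulus changed. With anti-IgM, 2 of the 7 tested members were higher in WT cells, Ccl3 and Ccl4, and 1 was lower, Ccl5. The same 2 were higher in Ubqln1-/- cells and 0 were lower. With LPS, 6 of 7 were higher in both genotypes, namely Ccl3, Ccl4, Ccl5, Ccl22, Cxcl10 and Cxcl16, and 0 were lower. These calls rest on an adjusted p under 0.05 (edgeR quasi-likelihood test, Benjamini-Hochberg over all 14161 tested genes), a rule that a large share of all genes met. Among all tested genes, 32.4% were higher and 32.2% lower with anti-IgM in WT cells, and 32.9% and 32.4% in Ubqln1-/- cells. With LPS, 31.2% were higher and 30.1% lower in WT cells, and 30.6% and 30.2% in Ubqln1-/- cells. The anti-IgM count of 2 of 7 was therefore near that of all genes, and the LPS count of 6 of 7 was above it. The members were listed with earlier results of these data known, so the higher LPS count is no test of them.

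The sizes of the changes were read under a stricter rule. The study's thresholds ask for a log2 fold change beyond 2 and an adjusted p under 0.001. Ccl3 and Ccl4 passed them upward with anti-IgM in both genotypes, which 1.72% of all tested genes did in WT cells and 1.79% in Ubqln1-/- cells. With LPS, Ccl3, Ccl5, Ccl22 and Cxcl10 passed in WT cells, and the same 4 with Ccl4 in Ubqln1-/- cells, against 1.36% and 1.22% of all tested genes. The median log2 fold change over the 7 tested members with LPS was 2.21 in WT and 2.09 in Ubqln1-/- cells, and the median over all tested genes was −0.01 and −0.02. With anti-IgM the members' median was −0.16 in WT and 0.23 in Ubqln1-/- cells. The members were listed with earlier results known, so neither these medians nor the passes under the stricter rule test them.

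**Figure D3:**
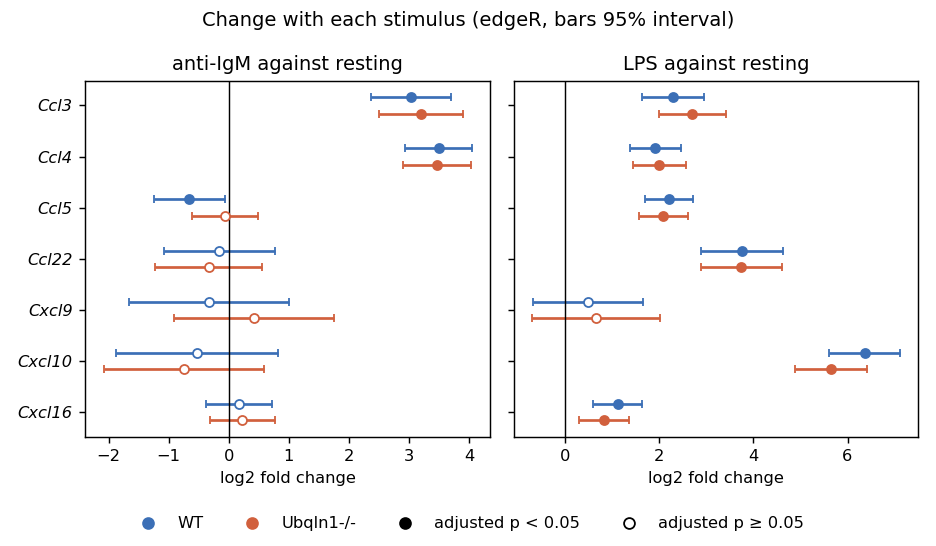
Log2 fold change (horizontal axis) of the 7 tested chemokine genes with anti-IgM (left) and LPS (right) against resting cells, in WT (blue) and Ubqln1-/- (orange-red) cells. Points are edgeR estimates, bars 95% intervals, and filled points have an adjusted p under 0.05. Intervals of Ccl3 and Ccl4 lie above 0 on both sides, and those of Ccl5, Ccl22, Cxcl10 and Cxcl16 only on the LPS side.

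Ccl4 gave the highest level of the 8 genes with anti-IgM. Its WT libraries held 6.65, 9.35 and 7.52 CPM at rest, 98.1, 88.5 and 81.4 CPM with anti-IgM, and 19.6, 36.2 and 34.0 CPM with LPS. Its Ubqln1-/- libraries held 5.78, 7.07 and 5.55 CPM at rest, 96.6, 55.2 and 51.8 CPM with anti-IgM, and 20.7, 27.7 and 25.4 CPM with LPS. The 3 conditions did not overlap in either genotype. The log2 fold change with anti-IgM was 3.49 (SE 0.26, 11.3-fold, adjusted p = 7.88e-09, edgeR) in WT and 3.47 (SE 0.26, 11.1-fold, adjusted p = 1.11e-08) in Ubqln1-/- cells. With LPS it was 1.92 (SE 0.26, adjusted p = 6.92e-06) and 2.01 (SE 0.27, adjusted p = 6.76e-06).

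Ccl3, its neighbour on chromosome 11, moved in the same direction at a lower level. WT libraries held 3.26, 4.17 and 3.49 CPM at rest, 33.0, 25.6 and 31.7 CPM with anti-IgM, and 13.4, 19.8 and 20.7 CPM with LPS. Ubqln1-/- libraries held 3.27, 2.60 and 1.38 CPM at rest, 35.0, 14.4 and 17.1 CPM with anti-IgM, and 14.9, 16.9 and 15.4 CPM with LPS. Stimulated and resting libraries did not overlap, and with anti-IgM replicate 1 of the Ubqln1-/- cells stood well above the other two for both genes. The log2 fold change of Ccl3 with anti-IgM was 3.03 (SE 0.31, adjusted p = 2.8e-07, edgeR) in WT and 3.20 (SE 0.33, adjusted p = 2.69e-07) in Ubqln1-/- cells, and with LPS 2.29 (SE 0.31, adjusted p = 8.88e-06) and 2.70 (SE 0.33, adjusted p = 3.11e-06). Per length, Ccl4 exceeded Ccl3 in all 18 libraries, by a ratio of 3.59 ± 0.533 (SD, n = 3) with anti-IgM and 1.97 ± 0.217 with LPS in WT cells. Across the 18 libraries the log2 CPM of the pair correlated with Pearson r = 0.948, a description over libraries that share 6 groups. The span that RefSeq gives Ccl4 reaches into Ccl3, and whether their counted exons overlap was not examined.

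Ccl5, which shares Ccr1 with Ccl3, answered only LPS with a rise. Its WT libraries held 2.11, 4.17 and 3.34 CPM at rest, 1.60, 2.24 and 2.43 CPM with anti-IgM, and 10.98, 14.4 and 20.3 CPM with LPS. Its Ubqln1-/- libraries held 4.12, 3.00 and 3.08 CPM at rest, 3.93, 2.63 and 3.19 CPM with anti-IgM, and 15.5, 14.1 and 13.9 CPM with LPS. LPS libraries lay above all others, and resting and anti-IgM libraries overlapped in both genotypes. The log2 fold change with LPS was 2.21 (SE 0.24, 4.63-fold, adjusted p = 8.38e-07, edgeR) in WT and 2.09 (SE 0.24, 4.26-fold, adjusted p = 1.64e-06) in Ubqln1-/- cells. With anti-IgM the value was −0.66 (SE 0.28, adjusted p = 0.0472) in WT and −0.06 (SE 0.26, adjusted p = 0.84) in Ubqln1-/- cells. That WT call was lost with limma-voom (adjusted p = 0.129) and in 5 of 6 fits without 1 library, and was kept only without WT resting replicate 1. Without WT resting replicate 2 the value was −0.40 (adjusted p = 0.274). Ccl5 is also a product of T and NK cells, whose defining markers Cd3e and Ncr1 stayed at 0 to 3 and 0 to 4 counts in each library. The summed T cell markers lay at 4.71 to 6.43 CPM in resting and 3.25 to 4.94 CPM in LPS WT libraries, and the summed NK markers at 2.22 to 3.39 and 1.91 to 3.01 CPM. With anti-IgM the T cell sum was higher than at rest, at 6.64 to 7.46 CPM in WT libraries. In Ubqln1-/- libraries it was 3.85 to 5.16 CPM at rest and 5.89 to 7.3 CPM with anti-IgM. The NK sum was 2.31 to 5.03 CPM with anti-IgM in WT libraries. The part of T and NK cells in the anti-IgM changes was not tested. Of the 3 T cell markers tested, Cd28 fell with LPS in both genotypes and Cd8a rose, from 0.418 ± 0.145 to 0.913 ± 0.213 CPM in WT cells (log2 fold change 1.07, adjusted p = 0.0102, edgeR) and from 0.387 ± 0.0490 to 0.798 ± 0.193 CPM in Ubqln1-/- cells (1.06, adjusted p = 0.0167). The part of Cd8a-expressing cells in the rise of Ccl5 was not tested.

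Of the Ccr4 ligands, Ccl22 had the highest mean RPKM of the 8 genes with LPS and did not pass the test with anti-IgM. WT libraries held 10.8, 10.6 and 5.48 CPM at rest, 7.78, 10.6 and 5.42 CPM with anti-IgM, and 140.1, 141 and 84.5 CPM with LPS. Ubqln1-/- libraries held 19.0, 7.25 and 5.65 CPM at rest, 12.1, 7.05 and 5.84 CPM with anti-IgM, and 180.5, 145.6 and 100.7 CPM with LPS. Every LPS library stood above every other library, and replicate 3 was the lowest of its group in 6 of 6 groups. The log2 fold change with LPS was 3.77 (SE 0.41, 13.6-fold, adjusted p = 8.18e-07, edgeR) in WT and 3.75 (SE 0.41, 13.4-fold, adjusted p = 7.53e-07) in Ubqln1-/- cells, and without Ubqln1-/- resting replicate 1 the latter was 4.47. With anti-IgM it was −0.16 (95% interval −1.09 to 0.77, adjusted p = 0.773) and −0.33 (−1.22 to 0.56, adjusted p = 0.508), so a change of 1 log2 unit downward lay within both intervals.

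Ccl17, the other Ccr4 ligand, was close to the detection limit. Its counts were 0, 4 and 0 at rest, 4, 4 and 1 with anti-IgM and 13, 10 and 13 with LPS in WT libraries. In Ubqln1-/- libraries they were 1, 2 and 1, then 2, 4 and 3, then 1, 5 and 5. Only the WT LPS libraries stood apart from their resting libraries. Summed over 3 libraries and scaled for depth, LPS gave 5.62 times the resting count in WT cells (36 against 4 counts, exact 95% interval 2.02 to 21.7) and 2.88 times in Ubqln1-/- cells (11 against 4 counts, 0.853 to 12.4), intervals that cover counting error only. A fit without the expression filter gave a log2 fold change of 2.48 (SE 0.73, adjusted p = 0.009, edgeR) with LPS in WT cells, where 20.6% of 21150 genes were called higher. In that fit Ubqln1-/- cells gave 1.47 (SE 0.85, adjusted p = 0.194).

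Cxcl10 showed the largest fold change of the 8 genes, and only with LPS. WT libraries held 0.128, 0.390 and 0.847 CPM at rest (2, 10 and 17 counts), 0.199, 0.189 and 0.658 CPM with anti-IgM (5, 5 and 13 counts), and 28.9, 37.0 and 51.7 CPM with LPS (894, 1455 and 1443 counts). Ubqln1-/- libraries held 0.474, 0.313 and 0.617 CPM at rest, 0.300, 0.125 and 0.456 CPM with anti-IgM, and 24.0, 24.4 and 22.2 CPM with LPS. Resting and anti-IgM libraries overlapped near 0, and LPS libraries lay far above them in both genotypes. The log2 fold change with LPS was 6.36 (SE 0.36, 82.2-fold, adjusted p = 1.67e-09, edgeR) in WT and 5.64 (SE 0.36, 50.0-fold, adjusted p = 3.93e-09) in Ubqln1-/- cells. The low resting counts set its precision, and without WT resting replicate 3 the WT value was 7.06. The Cxcl10 promoter printed above is the only one of the 5 with a match to the interferon-stimulated response element.

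Cxcl9, the other Cxcr3 ligand, stayed low throughout. It had 0 to 10 counts at rest, 2 to 9 with anti-IgM and 10 to 18 with LPS in WT libraries, and 3 to 7, 7 to 10 and 5 to 12 in Ubqln1-/- libraries. The groups overlapped in every comparison. With LPS its log2 fold change was 0.49 (95% interval −0.67 to 1.66, adjusted p = 0.456, edgeR) in WT and 0.66 (−0.69 to 2.01, adjusted p = 0.389) in Ubqln1-/- cells. A rise of the size seen for Cxcl10 lay outside both intervals.

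Cxcl16, the transmembrane member, rose with LPS by a small step. WT libraries held 7.42, 7.95 and 6.72 CPM at rest, 8.82, 8.49 and 7.65 CPM with anti-IgM, and 12.6, 18.5 and 16.9 CPM with LPS. Ubqln1-/- libraries held 10.5, 5.19 and 6.97 CPM at rest, 12.2, 6.67 and 7.53 CPM with anti-IgM, and 17.1, 10.4 and 13.1 CPM with LPS. LPS and resting libraries were separate in WT cells and overlapped in Ubqln1-/- cells. The log2 fold change with LPS was 1.12 (SE 0.25, 2.17-fold, adjusted p = 0.000984, edgeR) in WT and 0.83 (SE 0.25, 1.78-fold, adjusted p = 0.00932) in Ubqln1-/- cells. The latter call was lost without resting replicate 2 (adjusted p = 0.0519) and without LPS replicate 1 (adjusted p = 0.0537). The gene overlaps the start of Zmynd15 (chr11:70459433-70466202, plus strand) by 552 bases, and the library kit does not keep the strand, so part of its counts may belong to that gene. Zmynd15 rose in step, by 0.94 in WT and 0.79 in Ubqln1-/- cells with LPS, from 1.84 to 2.46 CPM at rest in WT libraries, and was the gene most like Cxcl16 across the 18 libraries (Pearson r = 0.956).

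Setting the stimuli against each other, Ccl4 was lower with LPS than with anti-IgM, and Ccl5, Ccl22 and Cxcl10 were higher, in both genotypes. In WT cells 4 of 7 members were higher with LPS, where 17.4% of all tested genes were, and 2 were lower, where 15.0% were. In Ubqln1-/- cells 3 were higher (16.8% of all genes) and 1 lower (14.5%). Ccl4 differed by −1.57 (SE 0.23, adjusted p = 3.7e-05, edgeR) in WT and −1.46 (SE 0.23, adjusted p = 0.000112) in Ubqln1-/- cells on the log2 scale. Cxcl10 differed by 6.89 and 6.39, Ccl22 by 3.92 and 4.08, and Ccl5 by 2.87 and 2.15, with adjusted p-values of at most 2.25e-06, and without WT anti-IgM replicate 3 the WT value of Cxcl10 was 7.62. Ccl3 was lower with LPS in WT cells (−0.74, SE 0.26, adjusted p = 0.0403), a call lost in 4 of 6 fits without 1 library (without anti-IgM replicate 1 or 3 or LPS replicate 1 or 2, adjusted p 0.0535 to 0.157), and was −0.49 (adjusted p = 0.19) in Ubqln1-/- cells. Cxcl16 was higher in WT cells (0.94, adjusted p = 0.00655) and 0.61 (adjusted p = 0.0728) in Ubqln1-/- cells. With the replicate number as a block, the Ubqln1-/- value of Cxcl16 was 0.61 (adjusted p = 0.0294), where 22.2% of all genes were called higher. Both stimuli were compared with the same resting libraries.

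The second question was whether loss of Ubqln1 changed these genes. At rest, with anti-IgM and with LPS, 0 of 7 members passed the test between genotypes, as did 0.0565%, 0.0989% and 0.0424% of all tested genes. At an unadjusted p under 0.05 edgeR passed 597, 728 and 557 genes in these conditions, among them the members Ccl5 with anti-IgM and Cxcl10 with LPS. A share of 0.05 of the 14161 tested genes would pass this if no gene differed, and these counts lie near or below that share. Limma-voom called 0 members, and 6, 18 and 5 of 14161 genes in all. DESeq2 called 0 members, and 32 of 14160, 47 of 13336 and 51 of 12788 genes in all. With so few genes called, 0 of 7 members is near the share of all genes in these fits, none of which used the replicate number. With the replicate number as a block, edgeR called 49, 94 and 125 of 14161 genes, among them Cxcl10 with LPS and no other member. The responses to anti-IgM and to LPS differed between genotypes for 0 members and 0 genes in all (0% and 0%) with edgeR, limma-voom and DESeq2. With edgeR, 140 and 220 genes had an unadjusted p under 0.05, below a share of 0.05 of the tested genes.

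Cxcl10 with LPS had the smallest unadjusted p of the members between genotypes. Its Ubqln1-/- LPS libraries (22.2 to 24.4 CPM) all lay below the WT ones (28.9 to 51.7 CPM), and the mean was 60.0% of WT. The log2 difference was −0.73 (SE 0.23, 95% interval −1.22 to −0.25, adjusted p = 0.617, edgeR), and the Ubqln1-/- library was lower in 3 of 3 same-numbered pairs. With the replicate number as a block the difference was −0.69 (SE 0.15, adjusted p = 0.043), a fit that called 0.883% of all genes, and over the other 6 alternatives that tested it the adjusted p was 0.307 to 1. Without WT LPS replicate 3, the highest library, the difference was −0.49. The difference in the LPS response itself was −0.72 (95% interval −2.10 to 0.66, adjusted p = 1), or −0.68 with the block (adjusted p = 1). Irf7 and Irf9, transcription factors of the interferon response, had lower means in the same libraries. Irf7 held 32.5 to 75.2 CPM in WT and 22.9 to 38.3 CPM in Ubqln1-/- LPS libraries, a log2 difference of −0.94 (adjusted p = 0.287, and 0.0289 with the block). Irf9 held 129.7 to 157.6 and 97.5 to 118.1 CPM, a log2 difference of −0.46 (adjusted p = 0.0439, and 0.0017 with the block). It was named after its values were seen, as 1 of 6 genes that the main fit called here. Whether Irf9 stayed called with other tools or without 1 library is not reported here.

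Ccl5 with anti-IgM was the other member whose genotypes did not overlap. Its Ubqln1-/- libraries (2.63 to 3.93 CPM) lay above the WT ones (1.60 to 2.43 CPM), with a log2 difference of 0.65 (95% interval 0.07 to 1.22, adjusted p = 0.897, edgeR). The difference in the anti-IgM response was 0.60 (95% interval −0.21 to 1.40, adjusted p = 1). Ccl4 with anti-IgM was lower in Ubqln1-/- cells in 3 of 3 same-numbered pairs, by −0.40 (−0.86 to 0.07, adjusted p = 0.997), and Ccl3 in 2 of 3 pairs, by −0.44 (−0.99 to 0.12, adjusted p = 0.997). Ccl22 with LPS was higher in 3 of 3 pairs, by 0.22 (−0.51 to 0.95, adjusted p = 1).

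**Figure D4:**
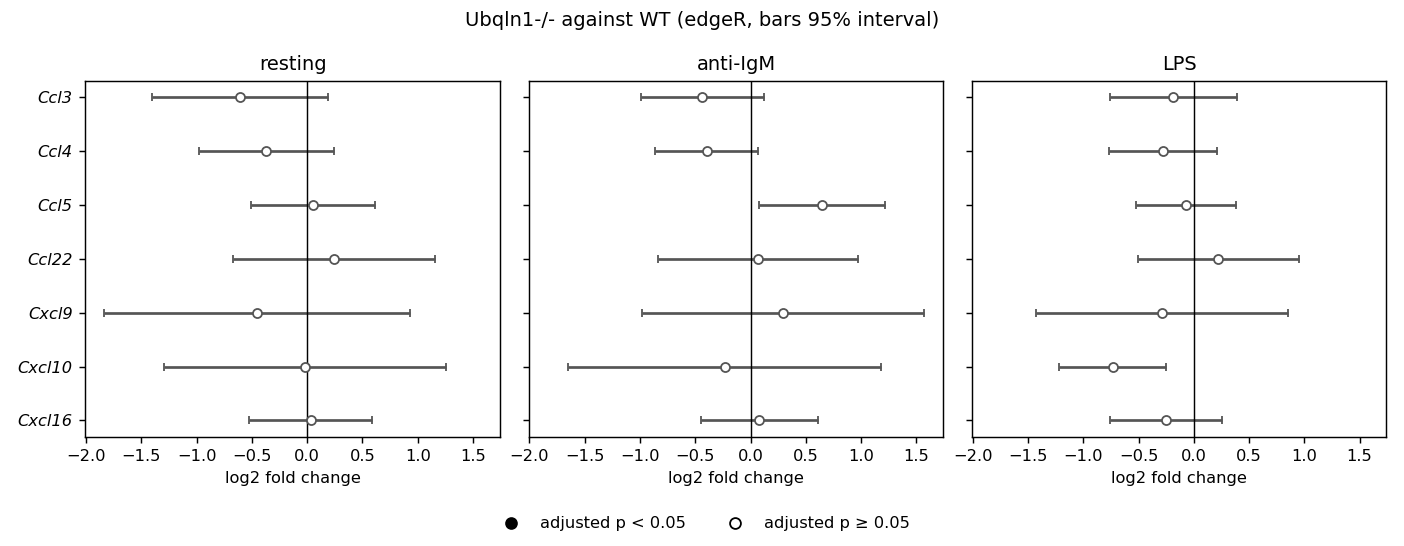
Log2 fold change of Ubqln1-/- against WT cells (horizontal axis) for the 7 tested chemokine genes at rest, with anti-IgM and with LPS. Points are edgeR estimates, bars 95% intervals, and open points have an adjusted p of 0.05 or more (here every point). The interval lies off 0 for Ccl5 with anti-IgM and Cxcl10 with LPS before adjustment.

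Receptors of these chemokines changed as well, in opposite directions by stimulus for Ccr1. With anti-IgM, Ccr1 rose and Cxcr3 and the scavenger receptor Ackr2 fell in both genotypes, and with LPS Ccr1 and Ackr2 fell. Ccr1 went from 3.46 ± 0.969 CPM (SD, n = 3) at rest to 9.77 ± 3.46 CPM with anti-IgM and 1.03 ± 0.724 CPM with LPS in WT cells. Its log2 fold changes were 1.47 (adjusted p = 0.000687, edgeR) and −1.82 (adjusted p = 0.000475) in WT cells, and 1.69 and −2.44 in Ubqln1-/- cells. Cxcr3, the receptor of Cxcl9 and Cxcl10, fell by 1.60 on the log2 scale with anti-IgM in WT cells (adjusted p = 0.0187), and its WT value with LPS was −1.17 (adjusted p = 0.0644). Ackr2 fell by 1.61 with anti-IgM and by 2.64 with LPS in WT cells. Cxcr6, the receptor of Cxcl16, had 2 to 18 counts per library and was not called, Ccr4 had 0 to 5 counts, and Ccr3 and Ackr1 had at most 4 and 2.

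**Figure D5:**
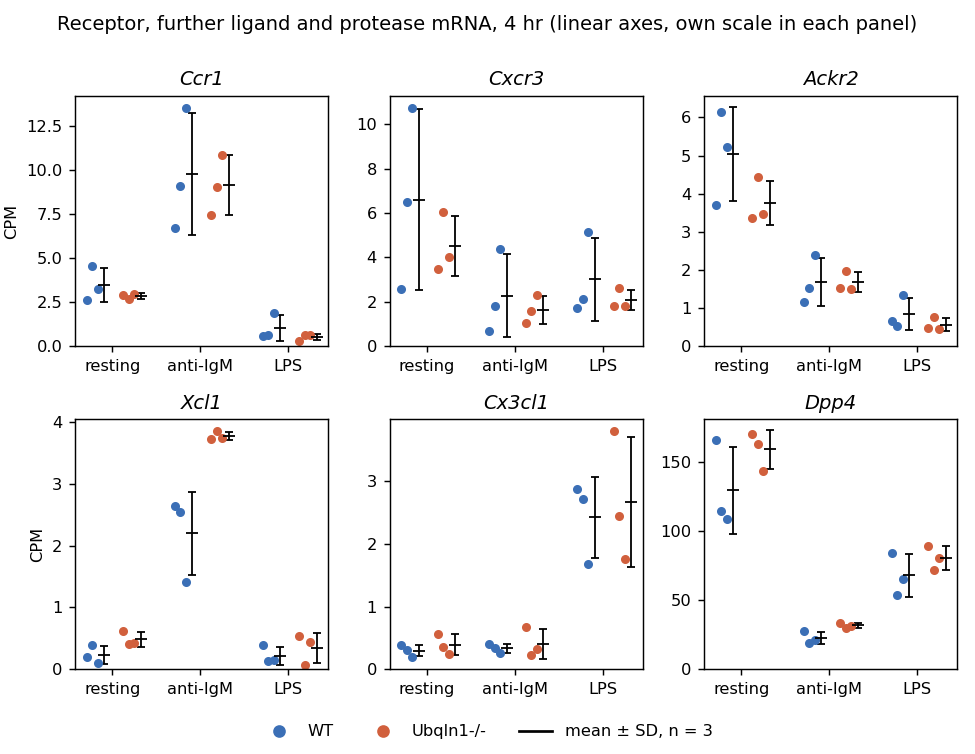
CPM (vertical axis, linear from 0, a separate scale in each panel) of the receptors Ccr1, Cxcr3 and Ackr2, the ligands Xcl1 and Cx3cl1 and the protease Dpp4 by condition. Points are single libraries (blue WT, orange-red Ubqln1-/-) and bars are mean ± SD of 3 libraries. Ccr1 and Xcl1 were highest with anti-IgM and Cx3cl1 with LPS, and Dpp4 was highest at rest.

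Among 30 other chemokine ligands, few had more than traces of RNA. Of these, 29 were counted, 7 passed the filter, and 1 rose with each stimulus in each genotype. Of all tested genes, 30.6% to 32.9% were higher in these 4 comparisons. Xcl1, a ligand of Xcr1 on dendritic cells, rose with anti-IgM from 0.227 ± 0.148 to 2.20 ± 0.676 CPM in WT cells (log2 fold change 3.17, adjusted p = 1.96e-05, edgeR) and from 0.482 ± 0.117 to 3.77 ± 0.0675 CPM in Ubqln1-/- cells (2.96, adjusted p = 6.54e-06). Cx3cl1, which like Cxcl16 is made as a transmembrane protein, rose with LPS from 0.298 ± 0.0929 to 2.43 ± 0.648 CPM in WT cells (3.03, adjusted p = 1.06e-05) and from 0.388 ± 0.168 to 2.67 ± 1.04 CPM in Ubqln1-/- cells (2.76, adjusted p = 1.87e-05). Ligands never above 3 counts in a library were Ccl1, Ccl2, Ccl7, Ccl8, Ccl11, Ccl12, Ccl19, Ccl20, Ccl21a, Ccl24, Ccl26, Cxcl5, Cxcl11, Cxcl12, Cxcl14, Cxcl15 and Cxcl17.

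Of the 3 proteases of these chemokines, 1 rose and 1 fell with anti-IgM in both genotypes, and 1 rose and 2 fell with LPS. Of all tested genes, 32.4% were higher and 32.2% lower with anti-IgM in WT cells, and 31.2% and 30.1% with LPS. Adam10, which sheds Cxcl16, rose with anti-IgM in WT cells from 270.1 ± 15.4 to 557 ± 20.9 CPM and fell with LPS to 208 ± 7.68 CPM. Adam17 rose with LPS by 0.38 on the log2 scale in WT and 0.40 in Ubqln1-/- cells. Dpp4, which trims the N-terminus of several chemokines, fell by 2.52 with anti-IgM and by 0.93 with LPS in WT cells. These directions were the same in both genotypes.

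Signal-dependent transcription factors differed by stimulus too, and their part in the chemokine changes was not tested. Of 20, 11 rose and 6 fell with anti-IgM in both genotypes, and 13 rose and 2 fell with LPS in WT cells (12 and 3 in Ubqln1-/- cells). Of all tested genes, 32.4% were higher and 32.2% lower with anti-IgM in WT cells, and 31.2% and 30.1% with LPS, so the 6 of 20 that fell with anti-IgM were near the share of all genes. Egr2, an immediate target of antigen receptor signals, rose with anti-IgM from 29.7 ± 5.67 to 538 ± 59.2 CPM in WT cells and fell by 0.88 on the log2 scale with LPS. Egr1 rose by 2.67 with anti-IgM, and its WT value with LPS was 0.63 (adjusted p = 0.0988, edgeR). Irf4 rose with both stimuli (2.24 and 1.81), as did Rel (1.64 and 1.28), Nfkb1 (0.88 and 1.60), Nfkb2 (0.35 and 1.21) and Junb (0.84 and 1.24). Irf7 rose with LPS by 2.00 in WT and 0.63 in Ubqln1-/- cells and fell with anti-IgM by 1.47 and 1.61.

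The genes whose log2 CPM was most like that of each member were found across the 18 libraries, as a description. For Ccl4 they were Mreg (Pearson r = 0.99), Cbfb (0.986) and Kcnh4 (0.985), and for Ccl3 Tuba1c (0.98) and the genes with Entrez numbers 100862648 and 100503555 (0.977 each). For Cxcl10 they were the interferon-stimulated genes Ifit1 (0.985) and Oasl1 (0.982) and the cell cycle gene Mybl2 (0.981), and for Ccl5 Il1b (0.971), Oasl1 (0.964) and Mybl2 (0.964). Ccl22 was nearest to Cx3cl1 (0.984), Mrpl45 (0.976) and Lyst (0.974), and Cxcl16 after Zmynd15 to Gm8221 (0.915) and Lad1 (0.907). For Cxcl9, with its few counts, they were Cybrd1 (0.835), Trpm2 (0.831) and Sdf4 (0.815). Among members, Ccl5, Ccl22 and Cxcl10 correlated with each other at 0.926 to 0.964, and Ccl4 correlated with Cxcl10 at 0.0161. The libraries share 6 groups, so these values describe the group pattern.

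Markers of other cells that can make these chemokines were measured beside them. The 7 dendritic cell markers summed to 14.1 to 23.8 CPM in resting, 23.3 to 31.9 CPM in anti-IgM and 42.4 to 73.0 CPM in LPS libraries of WT cells, with 18.5 to 23.2, 28.5 to 32.3 and 54.6 to 59.3 CPM in Ubqln1-/- cells. The sum was highest with LPS in both genotypes. With LPS in WT cells Zbtb46 rose (4.78 ± 0.607 to 35.3 ± 9.73 CPM), as did Flt3 (8.84 ± 2.19 to 21.5 ± 5.15 CPM), 2 of the 5 tested. Of all tested genes, 31.2% were higher there. Xcr1 and Clec9a, with 11 to 57 and 5 to 26 counts per library, were not called there. In Ubqln1-/- cells 2 of the 5 were called higher with LPS and 1 lower, where 30.6% and 30.2% of all tested genes were. With anti-IgM Zbtb46 rose to 15.8 ± 2.395 CPM in WT cells (log2 fold change 1.71, adjusted p = 9.17e-07, edgeR) and to 16.1 ± 1.06 CPM in Ubqln1-/- cells from 5.05 ± 0.711 CPM. Itgax did not rise (3.97 ± 1.65 to 2.46 ± 1.23 CPM), and Siglech and Cd209a had at most 7 and 10 counts. The 7 macrophage and monocyte markers summed to 22.2 to 49.3 CPM at rest and 11.7 to 17.9 CPM with LPS in WT cells. Of the 5 tested, 4 fell with LPS in both genotypes, where 30.1% (WT) and 30.2% (Ubqln1-/-) of all tested genes were lower. Adgre1 went from 21.9 ± 14.7 to 9.68 ± 4.32 CPM and Csf1r from 2.80 ± 0.505 to 0.363 ± 0.0627 CPM in WT cells. Neutrophil markers summed to at most 0.996 CPM, erythroid markers to at most 2.26 CPM and platelet markers to at most 8.37 CPM in any library. The part of these cells in the chemokine changes was not tested.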

How the data were processed

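Splenic B cell RNA was measured in 18 poly(A) libraries (TruSeq v2, single-end 50-base reads). Per the labels and methods, GSNAP and the GRCm38 genome were used for alignment, and the authors deposited raw counts per Entrez gene, the exonic width of each gene and RPKM. The counting program and its strand setting are not given in the sources used here. The deposited counts were used, and the deposited RPKM were not tested. RPKM printed in the text was computed from the counts, the width and the TMM-scaled library size. Gene symbols came from RefSeq (GRCm38.p6) by Entrez number, which matched 25035 of 28096 genes (89.1%), and positions from GENCODE M21.

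All 18 libraries entered a single edgeR 4.0.16 fit (TMM, expression filter, quasi-likelihood test, a term for each of the 6 groups) in R 4.3.3, and p-values were adjusted over 14161 genes by Benjamini-Hochberg. Alternatives were limma-voom (3.58.1), DESeq2 (1.42.0), RLE normalization, library size only, a fit on only the groups compared, no filter, a stricter filter (each library at 10 counts or more), a block for the replicate number, the study's thresholds and leaving out each library. The scripts were tested on simulated counts. Replicates 2 and 3 are numbered in the labels and the unnumbered library was taken as 1. Deviations of same-numbered libraries from their group means correlated at 0.0826 to 0.516, above 0.1 in 26 of 27 pairs. The main fit treated no comparison as paired. The replicate block was an alternative for every comparison, also the resting genotype comparison, which holds the pair at 0.0826. P-values measure the spread between these libraries. No pair of libraries of the same group was alike within sampling noise, and pairs from different groups were not checked. Every column used was mapped to a sample.

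The members and the lists were chosen with earlier results of these data known. Every member is named. Of the other ligands, receptors, proteases and transcription factors, up to 8 per list called with a stimulus and reaching 1 CPM were named, by the largest change in WT cells. The 3 genes most like each member used Pearson correlation of log2 CPM (prior count 2). Some listed genes are not reported here. Irf9 was named after its values were seen, because it was the only listed transcription factor called between genotypes. Python 3.11.15 and matplotlib 3.10.9 were used for tables and figures.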

Additional observations from a re-analysis of the deposited data

How the results depend on the processing

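Of the 17 changes called between a stimulus and rest among the members, 15 stayed called at an adjusted p under 0.05 with each other tool, normalization, filter and model that tested them and in every fit without 1 library. The study's thresholds on size also drop Ccl4 with LPS in WT cells and Cxcl16 with LPS in WT cells. The exceptions were Ccl5 with anti-IgM in WT cells, not called with limma-voom, without the filter and with only the groups compared (without single libraries −0.87 to −0.40), and Cxcl16 with LPS in Ubqln1-/- cells. Under the study's thresholds the members called for LPS against anti-IgM in WT cells numbered 3 in place of 6. With the replicate block, which pairs same-numbered libraries, 1 member in place of 0 was called between genotypes with LPS (Cxcl10), Cxcl16 was called higher with LPS than with anti-IgM in Ubqln1-/- cells, and no other member's call changed. Reversed signs occurred only for values that were not called. Limma-voom gave 0.13 for Cxcl9 with anti-IgM in WT cells, and between resting genotypes 0.19 for Cxcl9, 0.23 for Cxcl10 and −0.036 for Cxcl16, which was −0.0053 with the replicate block. Without single libraries, the log2 change with anti-IgM in WT cells ranged from −0.42 to 0.044 for Ccl22, −0.79 to 0.12 for Cxcl9 and −1.25 to 0.17 for Cxcl10. In Ubqln1-/- cells it ranged from −0.22 to 0.11 for Ccl5, −0.70 to 0.39 for Ccl22 and −0.080 to 0.55 for Cxcl16, and LPS against anti-IgM from −0.73 to 0.0077 for Ccl3. Between resting genotypes it ranged from −0.17 to 0.30 for Ccl5, −0.48 to 0.54 for Ccl22, −0.37 to 0.67 for Cxcl10 and −0.29 to 0.24 for Cxcl16. Between genotypes with anti-IgM it ranged from −0.31 to 0.34 for Ccl22, −0.15 to 0.60 for Cxcl9, −0.62 to 0.49 for Cxcl10 and −0.24 to 0.25 for Cxcl16, and with LPS from −0.26 to 0.19 for Ccl5. The cause of these changes was not tested. Of the other recomputed values, 840 kept their direction and their side of the threshold. Ccl17, Cxcl9 and resting Cxcl10 had few counts, which limits their precision, and with at least 10 counts in each library asked for, Cxcl9 and Cxcl10 gave no value.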

Other observations

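Some members differed between replicate numbers in the same way in most or all groups. Replicate 3 was the lowest library of its group for Ccl22 in 6 of 6 groups and the highest for Cxcl10 in 5 of 6. In the Ubqln1-/- LPS group replicate 3 was the lowest for Cxcl10 (22.2 CPM against 24.0 and 24.4 CPM). For Cxcl9, with 0 to 18 counts, replicate 1 was the lowest in 6 of 6. The RPKM ratio of Cxcl10 to Ccl22 with LPS was 0.351, 0.445 and 1.04 in WT replicates 1 to 3 and 0.227, 0.285 and 0.375 in Ubqln1-/- replicates, with replicate 3 the highest in both. What the numbers share beyond the number is not given in the sources used here.

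Xcl1 with anti-IgM lay at 1.42 to 2.63 CPM in WT and 3.73 to 3.85 CPM in Ubqln1-/- libraries, a log2 difference of 0.77 (SE 0.33, adjusted p = 0.904, edgeR). In the LPS libraries, Oasl1, the interferon-stimulated gene close to Cxcl10 and Ccl5, gave a log2 difference between genotypes of −0.34 (adjusted p = 1, edgeR, and 0.262 with the replicate block), and Ifit1 gave −0.56 (adjusted p = 1, and 0.384 with the block). Neither was called, unlike Irf9, which was named after its values were seen.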
